A study of Mus musculus with 6 samples.

Results

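Mitochondrial ribosomal protein genes were followed in C2C12 cells differentiated with or without doxycycline, to see how the genes of the organelle's own ribosome stood in the presence of an antibiotic that acts on ribosomes. The members were all genes whose symbol begins with Mrpl or Mrps followed by a digit, and 76 of the 19505 genes measured met this rule: 48 named for the large subunit (Mrpl) and 28 for the small subunit (Mrps). Each of the 76 was read by 1 probe set. C2C12 is a mouse myoblast line that fuses into multinucleated myotubes when serum is lowered. Of the 6 Clariom S mouse arrays, 2 came from non-transduced cells given doxycycline (Control), 2 from cells carrying a doxycycline-inducible MyoD lentivirus but given none (No_dox_M1), and 2 from the same transduced cells given doxycycline (Dox_M1). All cells were kept in 2% horse serum and their RNA was taken on day 3. Both transduced groups had been grown under blasticidin selection, which the Control cells had not, so doxycycline was the factor common to Control and Dox_M1 and missing from No_dox_M1. Control differed from No_dox_M1 also by virus and selection, and Dox_M1 differed from No_dox_M1 also by induced MyoD, so within each of these comparisons doxycycline and the other factor cannot be told apart. Whether arrays of the same group stem from separate cultures is not stated in the labels, and the p-values below measure only the spread between arrays, which may be technical.

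The mitochondrial ribosome translates the few messenger RNAs of the mitochondrial genome, all of which encode subunits of the respiratory chain and of ATP synthase. Its ribosomal RNAs are transcribed inside the organelle, whereas all of its proteins are encoded in the nucleus, made in the cytosol and imported. Some of its proteins descend from bacterial ribosomal proteins and others were added in mitochondria. Doxycycline, a tetracycline that binds the small subunit of bacterial ribosomes, is known to slow mitochondrial protein synthesis. Skeletal muscle is rich in mitochondria, and their number rises as myoblasts become myotubes. Some symbols mislead about position: the proteins of Mrps18a and Mrps30 sit in the large subunit, and the protein of Mrps36 is now known as a part of the 2-oxoglutarate dehydrogenase complex. These genes were kept in the small group by their symbols, and the split by known position is given beside it.

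Promoter sequence was examined because nuclear genes for mitochondrial proteins are known to share binding sites for a few factors: NRF1, the ETS factor GABPA, and YY1. RefSeq promoter windows on GRCm38.p6, which run from 250 bases before to 50 bases after an annotated start, were found for 67 of the 76 members. The ETS letters CCGGAAG stood in 25 of the 67 members (37.3%), against 9.93% of all 27025 genes with a window and 22.4% of the 7095 genes whose signal was above background on every array. The NRF1 core GCATGCGC stood in 8 members (11.9%, against 3.05% and 6.69%) and the YY1 letters AAGATGGC in 12 (17.9%, against 3.19% and 5.79%). The NF-Y letters CCAAT stood in 38.8% of members, the MYC and USF E-box CACGTG in 7.46% and the MyoD E-box CAGCTG in 14.9%, against 41.1%, 8.09% and 18.3% of all genes and 44.3%, 12.2% and 17.6% of the genes above background. Each motif was searched on both strands, the last letters of the ETS motif can also open a YY1 match, and a match is a description of letters and not a bound site. The median GC content of the windows was 58.3% for members, 52.7% for all promoters and 61.3% for genes above background. Members with an ETS match had a median log2 difference of 0.32 between the doxycycline groups and No_dox_M1, and those without had 0.27. The same medians were 0.26 and 0.31 for NRF1, and 0.30 and 0.29 for YY1, so the members with and without a match lay close together.

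The promoters of 5 members described below are printed, 4 that were higher in the doxycycline groups and Mrps9, which was lower, each from 5′ to 3′ on the strand of the gene with matches to the 6 motifs in capitals. The windows are chr11:58171414-58171713 on the plus strand for Mrpl22, chr19:45006393-45006692 on the minus strand for Mrpl43, chr11:88204138-88204437 on the plus strand for Mrps23, chr2:28467816-28468115 on the plus strand for Mrps2 and chr1:42850983-42851282 on the plus strand for Mrps9.
Mrpl22: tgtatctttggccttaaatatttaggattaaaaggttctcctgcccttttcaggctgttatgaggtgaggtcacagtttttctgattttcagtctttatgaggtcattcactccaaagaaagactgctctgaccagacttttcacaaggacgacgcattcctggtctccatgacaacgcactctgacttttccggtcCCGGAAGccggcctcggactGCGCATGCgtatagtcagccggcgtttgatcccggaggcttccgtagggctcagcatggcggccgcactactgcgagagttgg
Mrpl43: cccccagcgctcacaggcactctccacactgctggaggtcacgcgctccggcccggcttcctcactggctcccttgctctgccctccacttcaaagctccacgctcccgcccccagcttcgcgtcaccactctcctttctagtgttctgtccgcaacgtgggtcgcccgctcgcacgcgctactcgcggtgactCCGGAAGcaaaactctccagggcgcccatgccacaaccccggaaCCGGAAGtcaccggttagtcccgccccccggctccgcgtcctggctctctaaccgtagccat
Mrps23: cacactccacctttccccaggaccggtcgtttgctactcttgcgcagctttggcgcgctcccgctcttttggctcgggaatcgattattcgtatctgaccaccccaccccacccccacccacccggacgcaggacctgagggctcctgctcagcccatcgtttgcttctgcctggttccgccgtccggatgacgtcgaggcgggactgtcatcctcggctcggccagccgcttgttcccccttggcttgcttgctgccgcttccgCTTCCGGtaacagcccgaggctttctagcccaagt
Mrps2: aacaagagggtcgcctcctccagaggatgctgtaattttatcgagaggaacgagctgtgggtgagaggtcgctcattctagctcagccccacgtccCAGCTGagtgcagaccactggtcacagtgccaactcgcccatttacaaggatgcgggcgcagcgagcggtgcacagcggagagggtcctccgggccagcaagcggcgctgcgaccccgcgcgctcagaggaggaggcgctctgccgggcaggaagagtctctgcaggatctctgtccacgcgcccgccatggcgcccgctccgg
Mrps9: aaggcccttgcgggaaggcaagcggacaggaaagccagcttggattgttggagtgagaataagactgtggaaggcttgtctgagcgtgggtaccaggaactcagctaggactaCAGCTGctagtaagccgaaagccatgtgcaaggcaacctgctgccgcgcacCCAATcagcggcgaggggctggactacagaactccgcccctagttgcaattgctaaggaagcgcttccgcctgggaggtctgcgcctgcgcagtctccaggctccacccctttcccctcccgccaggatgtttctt
In Mrpl22 the capitals are an ETS match followed by an NRF1 match read on the other strand. Mrpl43 holds 2 ETS matches, and Mrps23 holds 1 ETS match read on the other strand close to its start. Mrps2 holds only the MyoD E-box, and Mrps9 holds a MyoD E-box and the NF-Y letters. No stated rule picked the printed members, so their matches do not show how motifs and differences go together.

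The signal of Myod1, the gene carried by the virus, was 11.51 and 12.54 on the Dox_M1 arrays on the log2 scale, 8.996 and 7.91 on the No_dox_M1 arrays, and 8.72 and 10.68 on the Control arrays, so the Dox_M1 arrays were highest, as labelled. Array medians over all genes ran from 5.83 to 5.89 log2, and the background, read from 23 background probe sets on each array, from 6.01 to 6.15. The Control arrays stood apart from each other: 2921 of all 19505 genes were at least 2-fold apart between them, against 739 between the No_dox_M1 arrays and 589 between the Dox_M1 arrays. The 8 differentiated muscle markers examined, which include Myog, Myh3 and Ckm, were above background on all 6 arrays. Their mean log2 signal was 14.13 and 16.23 on Control 1 and 2, 13.97 and 11.95 on No_dox_M1 1 and 2, and 15.36 and 15.50 on Dox_M1 1 and 2. No marker of macrophages (3 measured), adipocytes (4) or endothelium (3) was above background on any array, and of 3 neuron and 4 osteoblast or chondrocyte markers at most 1 of each list was above it on an array.

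Across the 76 members the signal was higher in the doxycycline groups than in No_dox_M1 by a median of 0.30 on the log2 scale, a factor of 1.23, while the median over all genes was 0.0014. The mean was higher for 67 of the 76 members (88.2%), against 50.2% of all genes. No member passed an adjusted p under 0.05 in limma (lowest adjusted p = 0.550), and neither did any other gene (0% of 19505). The unadjusted p was under 0.05 for 7 members with a higher and 0 with a lower signal, which is 9.21% and 0% of the members against 4.85% and 3.91% of all genes. By the methods' t-test 5 members were higher and 1 lower at that threshold (3.40% and 3.74% of all genes), with 0 after Benjamini-Hochberg adjustment. On 13 members all 4 doxycycline arrays lay above both No_dox_M1 arrays and on 2 they lay below, which is 17.1% and 2.63% against 11.1% and 11.7% of all genes. Among the 71 members above background on all arrays these shares were 15.5% and 2.82%, against 14.5% and 14.1% of all 8662 such genes. At an unadjusted p under 0.05 (limma) 8.45% of them were higher and 0% lower, against 7.52% and 4.63% of such genes. The shares of higher members were thus near those of genes above background, while the shares of lower members were smaller. Since muscle markers and these genes were read in whole cultures, a larger share of differentiated cells and more RNA per cell cannot be told apart. An exact two-sided permutation test of 4 arrays against 2 cannot give a p below 0.0667 for a gene taken alone.

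The heat map shows the members array by array. Each member's signal was set against its own mean over the 6 arrays, because probe sets of different genes do not share a scale. The mean deviation over the 76 members was -0.18 on Control 1 and 0.47 on Control 2, -0.092 and -0.35 on No_dox_M1 1 and 2, and -0.012 and 0.17 on Dox_M1 1 and 2. Control 2 was thus the highest array and No_dox_M1 2 the lowest, with Control 1 below No_dox_M1 1. Of the 76 members, 55 had their highest signal on Control 2, 44 their lowest on No_dox_M1 2 and 15 their lowest on Control 1. Of all 19505 genes these numbers were 4989, 4201 and 2517. Control 1 was below No_dox_M1 1 for 51 members, below both No_dox_M1 arrays for 20 and above both for 21, against 50.1%, 32.9% and 32.3% of all genes.

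**Figure D1:**
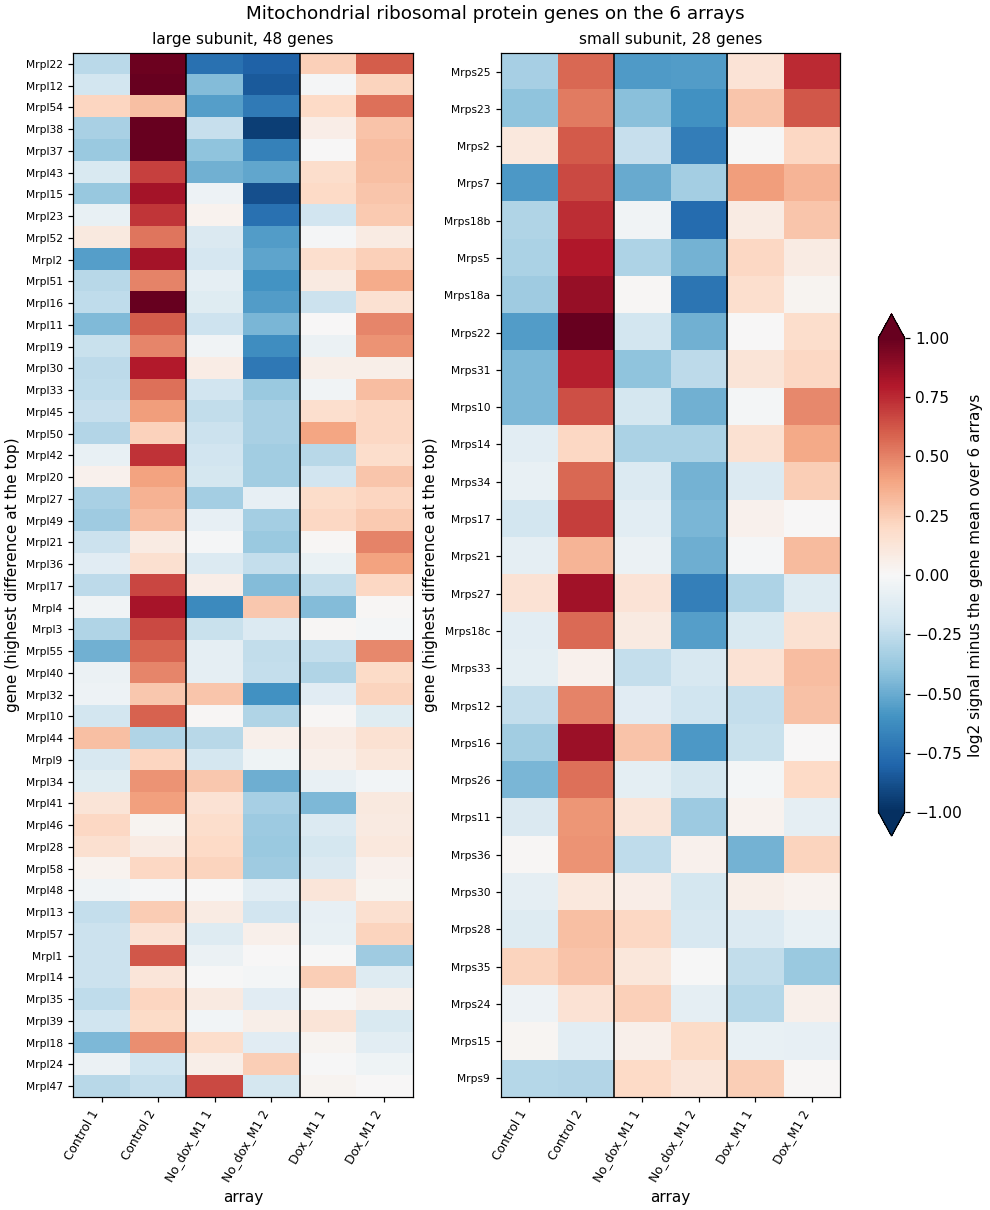
Heat map of the 76 mitochondrial ribosomal protein genes (rows, large and small subunit) on the 6 arrays (columns), coloured by the deviation of the log2 signal from the gene's own mean over the arrays, with colours ending at -1 and 1. Control 2 carries the highest values for 55 genes, and No_dox_M1 2 the lowest for 44.

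The difference between the 2 Control arrays was larger than that between groups. Control 2 exceeded Control 1 by a median of 0.67 over the members, it was higher for 70 of 76, and 19 of them were at least 2-fold apart, while 51.2% of all genes were higher on Control 2. Within No_dox_M1 the second array was lower by a median of 0.25 (higher for 16 members), and within Dox_M1 it was higher by 0.20 (56 members), with 0 members 2-fold apart in either group. Without Control 2 the median difference between the doxycycline groups and No_dox_M1 was 0.18 and 59 of 76 members were higher. Without Control 1 it was 0.51 with 70 higher, and 13 members passed the adjusted threshold, all of them higher, while 5.18% of all genes were called higher and 5.74% lower in the same fit. In that fit the Control group rests on 1 array, which is assumed to vary like the arrays of the other groups. The members that passed, named after their values were seen, were Mrpl22, Mrpl12, Mrpl37, Mrpl43, Mrps7, Mrps23, Mrpl38, Mrpl54, Mrps5, Mrps22, Mrps25, Mrps31 and Mrpl2. Of these, Mrpl54 was below background on every array.

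Among members of the large subunit, Mrpl22, which encodes a protein that lines the tunnel through which the nascent chain leaves the ribosome, had the largest difference. Its log2 signal was 6.87 and 8.12 on the Control arrays, 6.39 and 6.33 on the No_dox_M1 arrays, and 7.37 and 7.74 on the Dox_M1 arrays. All 4 doxycycline arrays lay above both others, at 7.52 ± 0.53 (SD, n = 4) against 6.36 ± 0.04 (SD, n = 2), a log2 difference of 1.16 with a standard error of 0.37 (limma, unadjusted p = 0.0205, adjusted p = 0.550). The signal was 1.25 higher on Control 2 than on Control 1, and the difference was 0.85 without Control 2. Mrpl43, which encodes a protein found in mitochondrial and not in bacterial ribosomes, read 7.72 and 8.55 on Control, 7.39 and 7.35 on No_dox_M1, and 8.04 and 8.17 on Dox_M1. Its groups did not overlap either, with a log2 difference of 0.75 ± 0.27 (SE, unadjusted p = 0.0317 by limma), or 0.54 without Control 2. Mrpl52, which encodes another mitochondrion-specific protein, read 9.51 and 9.94, 9.27 and 8.85, and 9.40 and 9.49 on Control, No_dox_M1 and Dox_M1. The doxycycline arrays were again all higher, by 0.53 ± 0.22 (SE, unadjusted p = 0.0560 by limma), with Dox_M1 1 close to No_dox_M1 1. Mrpl54 had the lowest p of any member (0.00257, adjusted p = 0.550, limma), with 4.91 and 4.99 on Control, 4.14 and 3.99 on No_dox_M1, and 4.89 and 5.25 on Dox_M1. All of these values were below the background, so no fold change is given for it.

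Among members of the small subunit, Mrps25, Mrps23, Mrps2 and Mrps14 had the lowest p-values. Mrps25, which encodes a mitochondrion-specific protein, read 8.76 and 9.67 on Control, 8.52 and 8.53 on No_dox_M1, and 9.22 and 9.84 on Dox_M1. The Dox_M1 arrays bracketed Control 2, and all 4 doxycycline arrays exceeded both others, with a log2 difference of 0.85 ± 0.32 (SE, unadjusted p = 0.0401 by limma). Mrps23, also mitochondrion-specific and with 1 of the 3 highest signals of the small subunit, read 10.20 and 11.12 on Control, 10.19 and 9.996 on No_dox_M1, and 10.88 and 11.23 on Dox_M1. Control 1 was close to No_dox_M1 1, so the groups only just did not overlap, with a difference of 0.77 ± 0.30 (SE, unadjusted p = 0.0444 by limma). Mrps2, which encodes a protein with a counterpart in bacteria, read 9.19 and 9.70, 8.86 and 8.40, and 9.08 and 9.29 on Control, No_dox_M1 and Dox_M1, a difference of 0.69 ± 0.24 (SE, unadjusted p = 0.0300 by limma). Mrps14, which encodes another such protein, read 10.42 and 10.73, 10.21 and 10.21, and 10.68 and 10.90, a difference of 0.47 ± 0.19 (SE, unadjusted p = 0.0445 by limma). For all 4 genes the adjusted p was 0.550. The other members whose groups did not overlap were Mrpl12, Mrpl37, Mrpl45 and Mrps33, with log2 differences of 0.96, 0.81, 0.42 and 0.29 (0.60, 0.43, 0.26 and 0.26 without Control 2), and Mrpl36, which was below background on every array and is given no difference. Mrpl12, Mrpl37, Mrpl45 and Mrps33 had unadjusted p of 0.0619, 0.110, 0.115 and 0.131 by limma. Control 1 was close to No_dox_M1 1 in Mrpl37 (8.58 and 8.55) and in Mrpl45 (11.75 and 11.74).

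**Figure D2:**
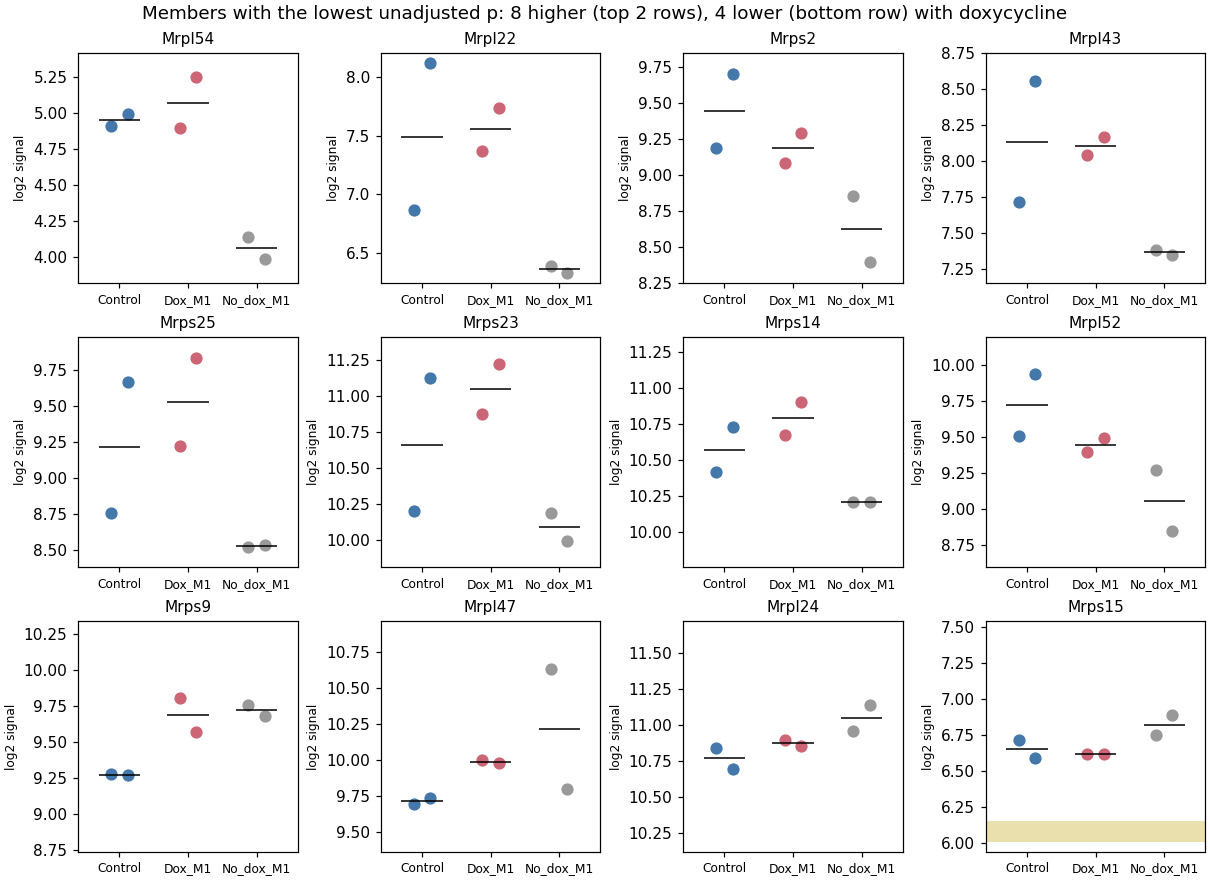
Log2 signal (y axis) of selected members on the 2 arrays of each group (points), with the group mean as a line and the background of 6.01 to 6.15 as a band where it falls within the panel. In Mrpl22 and Mrpl43 all 4 doxycycline arrays lie above both No_dox_M1 arrays, while in Mrps15 they lie below, and Mrpl54 lies below background throughout.

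The 9 members with a lower mean in the doxycycline groups had log2 differences between -0.36 and -0.022. Mrpl47, a counterpart of a bacterial large subunit protein beside the exit of the tunnel, read 9.69 and 9.73 on Control, 10.63 and 9.79 on No_dox_M1, and 9.998 and 9.97 on Dox_M1. The difference of -0.36 ± 0.27 (SE) rested on No_dox_M1 1, and without that array it was 0.055. Mrpl24 was lower on all 4 doxycycline arrays (10.84, 10.70, 10.89 and 10.86) than on the No_dox_M1 arrays (10.96 and 11.14). Its difference was -0.23 ± 0.17 (SE, unadjusted p = 0.223 by limma). Mrps15 was likewise lower on all 4, at 6.71, 6.59, 6.62 and 6.62 against 6.75 and 6.89, a difference of -0.19 ± 0.16 (SE). These signals lay close above the background of 6.01 to 6.15. Mrps9 read 9.28 and 9.27 on Control, 9.76 and 9.68 on No_dox_M1, and 9.80 and 9.57 on Dox_M1. It was thus low on both Control arrays and not on the Dox_M1 arrays, and had the lowest p among the lower members (unadjusted p = 0.209 by limma). Mrps24, Mrps35, Mrpl18 and Mrps28 had differences of -0.11, -0.079, -0.044 and -0.031, smaller than their standard errors, and Mrpl39 of -0.022.

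The large and small subunit had nearly equal mean deviations on every array. The median difference between the doxycycline groups and No_dox_M1 was 0.28 over the 48 large subunit members (44 higher) and 0.41 over the 28 small subunit members (23 higher), with interquartile ranges of 0.14 to 0.50 and 0.18 to 0.51. The large subunit median was therefore 0.13 lower, within a range of -0.14 to -0.021 when each array in turn was left out. Array by array, the mean deviation of the large subunit minus that of the small was 0.031 and -0.038 on Control, 0.0013 and 0.0020 on No_dox_M1, and -0.0055 and 0.0097 on Dox_M1. The Control arrays thus differed in sign, and no group lay apart from the others. At an unadjusted p under 0.05, 3 large (6.25%) and 4 small subunit members (14.3%) were higher. The share was 4.85% of all genes and 7.52% of genes above background on all arrays. Groups did not overlap for 8 and 5 of those higher (16.7% and 17.9%, against 11.1% of all genes) and for 1 and 1 of those lower (2.08% and 3.57%, against 11.7%). Of genes above background on all arrays 14.5% did not overlap and were higher, and 14.1% were lower. With Mrps18a and Mrps30 counted as large and Mrps36 left out, the medians were 0.28 over 50 genes and 0.41 over 25.

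**Figure D3:**
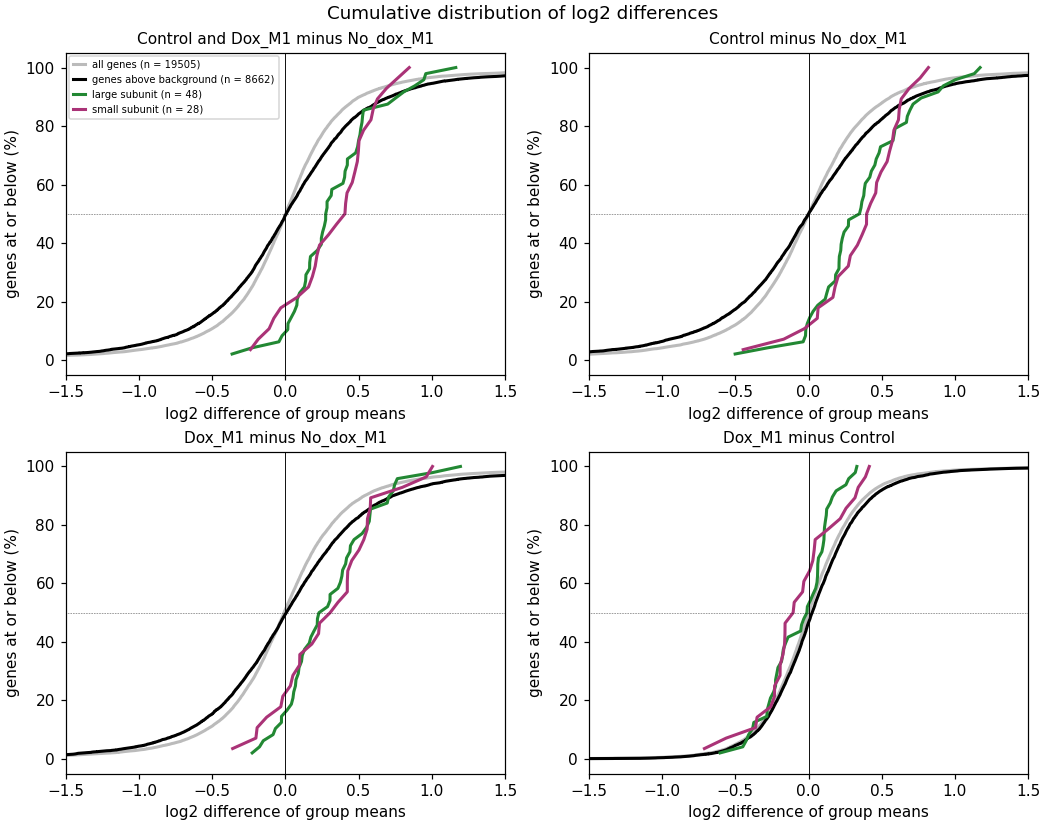
Cumulative share of genes (y axis, percent) by log2 difference (x axis) in each comparison, for the large subunit, the small subunit, all 19505 genes and the 8662 genes above background on all arrays, with the few most extreme genes outside the x axis. Against No_dox_M1 both subunit curves lie to the right of that of all genes over most of their height, with medians of 0.28 and 0.41 for both doxycycline groups together, and in Dox_M1 against Control they lie near 0.

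The origin of the proteins gave a similar picture. The 45 members with a counterpart in bacterial ribosomes had a median of 0.28 (38 higher, 3 of them at an unadjusted p under 0.05) and the 30 added in mitochondria a median of 0.41 (28 higher, 4 at that threshold), with Mrps36 counted in neither. At that threshold 4.85% of all genes and 7.52% of genes above background on all arrays were higher. The counts at that threshold include Mrpl54, which was below background on every array. The mean deviations of both classes followed the same order of arrays, at 0.47 and 0.47 on Control 2 and -0.34 and -0.39 on No_dox_M1 2. Both members whose doxycycline arrays were all lower, Mrpl24 and Mrps15, have bacterial counterparts. Of the 76 members 71 were above background on all 6 arrays, with a median difference of 0.32, against a median of 0.0066 for all 8662 such genes. The probe sets with the highest signals, which do not rank the transcripts by level, were those of Mrpl33, Mrpl20 and Mrpl42 in the large subunit and Mrps33, Mrps21 and Mrps23 in the small, and the first 3 had differences of 0.42, 0.39 and 0.40, or 0.22, 0.30 and 0.21 without Control 2. Mrpl33 read 13.41 and 14.22 on Control, 13.48 and 13.30 on No_dox_M1, and 13.63 and 13.97 on Dox_M1, with Control 1 below No_dox_M1 1. Those with the lowest signals were Mrpl54, Mrpl36 and Mrpl46, below background on every array, and Mrps35, Mrps15 and Mrps16. Mrpl4 and Mrps35 were above background on 4 of 6 arrays.

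Each doxycycline group was also set against No_dox_M1 alone, and these comparisons share the No_dox_M1 arrays. In Control against No_dox_M1 the median over the members was 0.37 and 67 of 76 were higher. None passed the adjusted threshold by limma (0% of all genes), and the unadjusted p was under 0.05 for 5 higher and 0 lower members (3.12% and 3.11% of all genes). Among members above background on all arrays 5.63% were higher and 0% lower at that threshold, against 4.03% and 3.57% of all such genes. Groups did not overlap for 19 members that were higher and 4 that were lower, which is 25% and 5.26% against 19.2% and 19.2% of all genes. Among members above background on all arrays these shares were 22.5% and 5.63%, against 20.5% and 20.4% of all such genes. This median rested on Control 2: it was 0.057 with 42 members higher without Control 2, and 0.69 without Control 1, where 11 members passed the adjusted threshold, all higher, against 5.09% of all genes higher and 6.15% lower. The methods' t-test called 1 member higher and 1 lower at an unadjusted p under 0.05 (2.02% and 2.20% of all genes), and 0 after adjustment.

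In Dox_M1 against No_dox_M1, where all 4 arrays came from cells with the virus, the median was 0.30 and 63 of 76 members were higher. Again 0 passed the adjusted threshold by limma (0% of all genes), and the unadjusted p was under 0.05 for 5 higher and 0 lower members (4.22% and 3.19% of all genes). In 37 members both Dox_M1 arrays lay above both No_dox_M1 arrays and in 3 both lay below, which is 48.7% and 3.95% against 23.8% and 24.8% of all genes. The 37 were 22 of 48 large and 15 of 28 small subunit members. Among members above background on all arrays the shares not overlapping were 49.3% higher and 2.82% lower, against 30.7% and 29.2% of all such genes. At an unadjusted p under 0.05 (limma) 5.63% of these members were higher and 0% lower, against 6.37% and 3.46% of such genes. The share of higher members by p was thus not above that of genes above background. The median stayed between 0.17 and 0.44 when any array was left out. A fit to these 4 arrays alone called 14 members higher and 0 lower at an unadjusted p under 0.05, against 8.45% and 8.24% of all genes, and after adjustment it called 15 genes, of which 0 were members. The methods' t-test called 11 members higher and 1 lower, against 4.30% and 4.42% of all genes, and 0 members after adjustment. With 2 arrays against 2, an exact permutation test cannot go below 0.333.

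Dox_M1 and Control, which both received doxycycline, had a median difference near 0 over the members. It was -0.036 and 34 of 76 were higher in Dox_M1, beside a median of 0.0012 over all genes. Limma called 0 members at the adjusted threshold (0% of all genes), and at an unadjusted p under 0.05 it called 0 higher and 1 lower (1.6% and 1.34% of all genes). Groups did not overlap for 5 members that were higher and 4 that were lower in Dox_M1, or 6.58% and 5.26% against 13.9% and 14.3% of all genes. The 1 lower member was Mrps35 (unadjusted p = 0.0257), which read 6.55 and 6.62 on Control and 6.08 and 5.96 on Dox_M1, so that both Dox_M1 values were below the background of their arrays. The largest differences were those of Mrps27, which encodes a pentatricopeptide repeat protein of the small subunit, and of Mrpl4, which encodes a protein of the exit tunnel, at -0.71 and -0.60. Mrps27 read 8.35 and 9.05 on Control, 8.35 and 7.52 on No_dox_M1, and 7.90 and 8.07 on Dox_M1. Mrpl4 read 6.32 and 7.18 on Control and 5.92 and 6.37 on Dox_M1, so these groups overlapped. Its Dox_M1 1 value was below the background of that array. The sign of the median turned with the Control array used: it was -0.43 without Control 1, with 12 members higher in Dox_M1, and 0.28 without Control 2, with 63 higher.

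Other proteins of mitochondrial translation were examined by lists in the same comparison of the doxycycline groups with No_dox_M1. Of the mitoribosomal proteins without an Mrp symbol, 4 were measured, with a median of 0.54. Chchd1 read 7.36 and 8.20 on Control, 6.96 and 6.58 on No_dox_M1, and 7.33 and 7.42 on Dox_M1, a difference of 0.81 (unadjusted p = 0.0313 by limma). Dap3, a small subunit protein that binds GTP, was lower, at -0.22. Of 27 assembly factors 15 were higher and 12 lower, with a median of 0.18, and 3 were higher at an unadjusted p under 0.05, where all genes stood at 4.85%: Mtg1, a GTPase that matures the large subunit (0.69), Nsun4, an RNA methyltransferase (0.61), and Mrm3, which methylates the large ribosomal RNA (0.45). The 15 translation factors had a median of 0.15, with Tufm, the elongation factor that brings aminoacyl-tRNA to the ribosome, at 0.92 (unadjusted p = 0.0561) and Metap1d, which removes the initiator methionine, at -0.94 (unadjusted p = 0.0291). The 21 aminoacyl-tRNA synthetases had a median of 0.20, and Hars2, which charges histidine tRNA, was lower on all 4 doxycycline arrays, at -0.69 (unadjusted p = 0.00819). The 26 genes of mitochondrial transcription and RNA handling had a median of 0.31 with 1 of the 26 higher at that threshold, Fastkd1 (1.05), against the same 4.85% of all genes, and the 12 regulators of nuclear mitochondrial genes a median of -0.030 with 0 in either direction. No gene of these lists passed the adjusted threshold.

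Nuclear genes of the respiratory chain and of ATP synthase were set beside the mitochondrial ribosomal protein genes. Of the 83 nuclear respiratory chain and ATP synthase genes 81 were higher in the doxycycline groups, with a median of 0.58, 11 of them at an unadjusted p under 0.05 and 0 lower (4.85% and 3.91% of all genes), and all 4 doxycycline arrays lay above both others for 32 (11.1% of all genes). Cox6a2, the muscle form of a cytochrome oxidase subunit, read 7.08 and 12.72 on Control, 6.22 and 5.39 on No_dox_M1, and 10.73 and 12.62 on Dox_M1, which is the widest range of that list's named genes. Uqcr11 (1.11) and Ndufs3 (1.05) had differences nearer those of Mrpl22. No gene encoded in the mitochondrial genome was among the named genes measured. The 63 cytosolic ribosomal protein genes had a median of 0.049 with 40 higher and 2 higher at an unadjusted p under 0.05 (against 4.85% of all genes), Rpl36 (0.43) and Rpl29 (0.68). The 15 genes of cytosolic ribosome biogenesis had a median of 0.40, and the 16 proliferation genes 0.0070.

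Other gene groups moved over the same arrays. The 29 mitochondrial stress and ATF4 target genes had a median of 0.47 between the doxycycline groups and No_dox_M1, with 6 higher at an unadjusted p under 0.05 (4.85% of all genes), among them Mthfd2, of mitochondrial folate metabolism (2.53), Asns, which makes asparagine (2.16), and Phgdh, of serine synthesis (2.09). Their mean deviation was -0.21 and 1.08 on Control 1 and 2, -0.33 and -0.74 on No_dox_M1 1 and 2, and 0.020 and 0.18 on Dox_M1 1 and 2. That of the 83 respiratory chain genes was -0.28 and 0.69, -0.28 and -0.57, and 0.038 and 0.40. The 8 differentiated muscle markers had a median of 2.27, 7 of them higher at an unadjusted p under 0.05 (4.85% of all genes), with mean deviations of -0.40 and 1.71 on Control, -0.55 and -2.57 on No_dox_M1, and 0.84 and 0.97 on Dox_M1. Control 2 was the highest and No_dox_M1 2 the lowest array for all of these lists and for the mitochondrial ribosomal protein genes. Control 1 was below the 6-array mean in each. Of the myoblast and reserve cell markers 4 were measured, 2 with a higher and 2 with a lower mean in the doxycycline groups (median -0.52). Myf5 had a difference of -1.19 (unadjusted p = 0.00734), the 1 marker of the 4 under 0.05, and Pax7 was below background on every array. The part of muscle differentiation, of the stress genes and of the Control 2 array in the difference among the mitochondrial ribosomal protein genes was not tested.

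**Figure D4:**
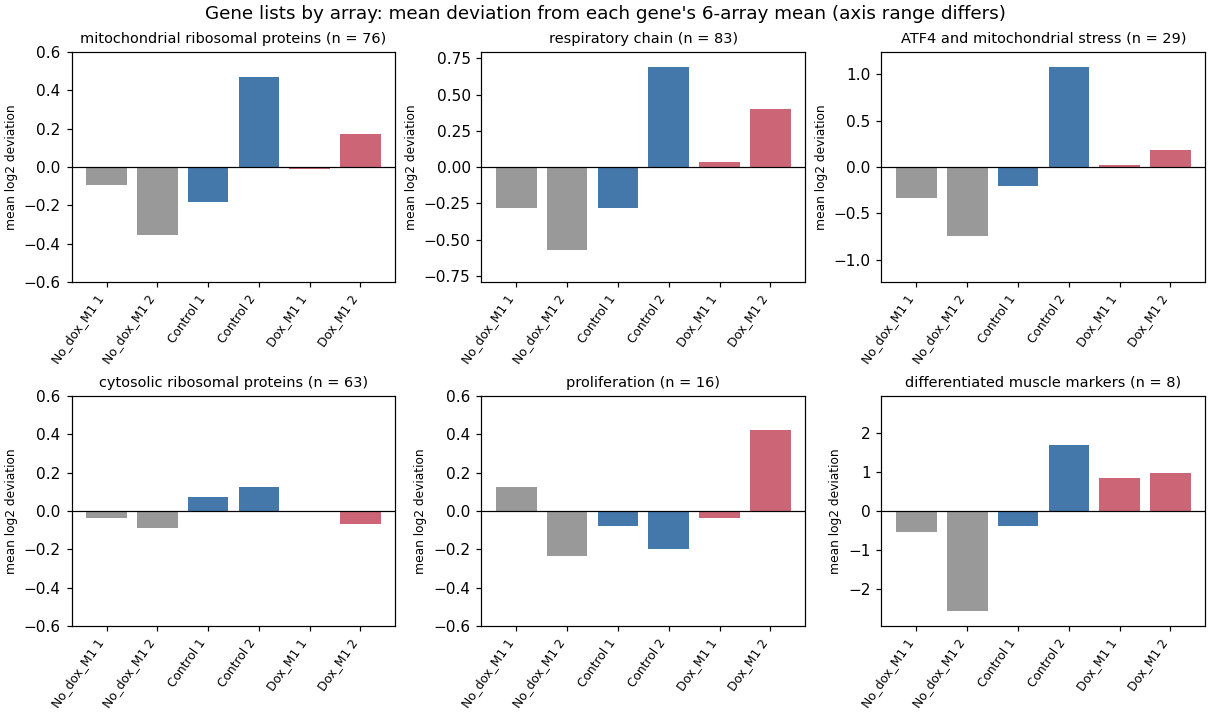
Mean deviation of the log2 signal from each gene's own mean (y axis) on each of the 6 arrays (x axis) for the mitochondrial ribosomal protein genes and 5 other gene lists, 1 bar per array with no error, since the genes of a list are not replicates. Control 2 is highest and No_dox_M1 2 lowest for the mitochondrial ribosomal protein genes (0.47 and -0.35), the respiratory chain genes (0.69 and -0.57) and the muscle markers (1.71 and -2.57). The cytosolic ribosomal protein genes have the same highest and lowest array but stay between -0.089 and 0.13.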

How the data were processed

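The authors deposited 1 table of linear signal intensity per probe set for the 6 arrays, already normalized between arrays. Affymetrix Expression Console is named in the submitters' notes and other console software in the methods, without saying which of them gave these values. Of 28846 probe sets 19572 had 1 gene symbol in the platform annotation and 0 had several. For the 55 genes with more than 1, the probe set with the highest mean was kept, which left 19505 genes. No filter on dim genes was applied, and no coordinates were read from the table.

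Log2 of the intensity, with no offset, was fitted with limma 3.58.1 in R 4.3.3 (lmFit and eBayes, two-sided) to 3 groups of 2 arrays with 3 residual degrees of freedom. Benjamini-Hochberg adjustment ran over all genes in each of 4 comparisons, called under 0.05. The script was tested on simulated data. The background of an array was the 90th percentile of 23 background probe sets, and the number of arrays limits the precision. Whether replicate numbers pair arrays is not stated in the labels. Deviations correlated at -0.34, 0.41 and -0.054 between groups, with no common direction, so the fit has no replicate block.

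Members and gene lists, taken from textbook knowledge, were chosen with earlier results of these data known. Named members are the 8 lowest p in each direction, the 3 highest and 3 lowest signals of each subunit and the 2 largest differences between Dox_M1 and Control, and from other lists up to 3 genes with the lowest p in each direction. Alternatives were quantile and median scaling, a filter on dim genes, eBayes with trend, fewer arrays, the replicate block, means of probe sets, a floor at background, the methods' t-test and leaving out each array. A crossed replicate block and subunits by known position were added after seeing the data.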

Additional observations from a re-analysis of the deposited data

How the results depend on the processing

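Quantile normalization, median scaling, the filter on the lowest 40% of genes, trend and robust moderation, means of probe sets, the floor at background, the methods' t-test, the 2-group fits and the replicate block left the direction of each members' median and the count of 0 adjusted calls as reported. The floor at background also raised the median over all genes. In the doxycycline groups against No_dox_M1 that median was 0.065, beside 0.29 over the members. In Dox_M1 against No_dox_M1 it was 0.10, beside 0.23 over the members. Leaving out each array moved the median between 0.18 and 0.51 for the doxycycline groups against No_dox_M1 (0 to 13 adjusted calls), between 0.057 and 0.69 for Control against No_dox_M1 (0 to 11), between 0.17 and 0.44 for Dox_M1 against No_dox_M1 (0), and between -0.43 and 0.28 for Dox_M1 against Control (0). Adjusted calls of members were made in no alternative run here other than without Control 1, and the sign of the last median turned with the Control array. The large minus small difference of -0.13 moved between -0.14 and -0.021. Over all 76 members, 67 were higher in the doxycycline groups, and 59 without Control 2. Among the members named by the rule, signs turned for 6, whose differences ran from -0.27 to 0.18 for Mrpl18 (0.098 without No_dox_M1 1), -0.22 to 0.15 for Mrps28 (0.078 without Control 1), -0.21 to 0.64 for Mrps16 (-0.086 without Control 2), -0.13 to 0.41 for Mrpl46 (below background on every array), -0.78 to 0.055 for Mrpl47 and -0.27 to 0.050 for Mrps24. The cause was not tested.

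Counts of members at an unadjusted p under 0.05 depended more on the setting: the 7 higher in the doxycycline groups against No_dox_M1 became 1 (without No_dox_M1 2 or Dox_M1 2) to 35 (without Control 1) when an array was left out, while the share over all genes moved from 4.85% to 1.08%, 1.88% and 12.5% in the same fits. Leaving out dim genes changed the counts of 7, 5 and 5 higher in the comparisons with No_dox_M1 to 4, 2 and 3 of 75, where all genes stood at 5.55%, 2.96% and 4.73%. The floor at background gave 3 higher and 2 lower in Control against No_dox_M1, where all genes stood at 2.36% and 2.47%. In Dox_M1 against No_dox_M1 it gave 3 and 1 (3.33% and 2.65% of all genes). It also gave 2 lower in the doxycycline groups together against No_dox_M1 (3.08% of all genes) and 2 higher in Dox_M1 against Control (1.625%). Fits to 4 arrays called 1 higher in Control and 14 in Dox_M1 against No_dox_M1 (1.57% and 8.45% of all genes). The methods' t-test called 1 and 11 (2.025% and 4.30% of all genes). With the replicate block the median of the doxycycline groups against No_dox_M1 was 0.30 again, and 6 members were higher at that threshold, against 4.36% of all genes. With the numbers of the No_dox_M1 arrays exchanged, a pairing chosen after seeing the data, 15 were higher, 11 in Control against No_dox_M1, and 2 were lower in Dox_M1 against Control. The share over all genes in that fit is not given here, so these counts cannot be read as an excess among the members. With 2 arrays a group the 0 adjusted calls show only that no member passed, not that none differed.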
